A study of Mus musculus with 4 samples.

Results

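The lysosome genes described here are 37 genes that encode the enzymes, membrane proteins and proton pump of the lysosome. They were listed by symbol from these known roles and found by their Ensembl identifiers, and all 37 are among the 12596 genes of the table. The set held 8 cysteine and aspartic proteases (Ctsb, Ctsc, Ctsd, Ctsh, Ctsl, Ctss, Ctsz and Lgmn) and 10 other hydrolases (Ctsa, Tpp1, Ppt1, Hexa, Gusb, Man2b1, Neu1, Glb1, Lipa and Asah1). A further 5 genes encode proteins that handle sphingolipids and sterols or otherwise reside in the lumen (Psap, Gm2a, Npc1, Npc2 and Grn). The last groups were 8 membrane proteins (Lamp1, Lamp2, Cd63, Cd68, Laptm5, Laptm4a, Scarb2 and Mcoln1) and 6 subunits or accessory proteins of the vacuolar proton pump, the V-ATPase (Atp6v0c, Atp6v0d1, Atp6v1a, Atp6v1b2, Atp6ap1 and Atp6ap2).

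Colonic lamina propria monocytes and macrophages of 4 male C57/Bl6N mice were profiled by droplet single-cell RNA sequencing, to ask how oral exposure to air pollution particles alters intestinal macrophages. Mice 14 and 15 received diesel exhaust particles (DEP) by gavage, 12 µg in 200 µL of PBS on 5 days per week for about 6 months, and mice 2 and 3 received PBS alone on the same schedule. The sort kept Cd11b+ cells that also carried Ly6c2 or Cd64, and the age of the mice is not given in the sources used here. Each mouse filled 1 well of the 3′ assay, so that an effect of a well and of a mouse cannot be told apart.

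Lysosomes are acidic organelles in which cathepsins and other hydrolases break down proteins, sugars, lipids and nucleic acids that arrive from phagosomes, endosomes and autophagosomes. The V-ATPase pumps protons into the lumen, heavily glycosylated membrane proteins line it, and small activator proteins such as the saposins present lipids to the enzymes. In intestinal macrophages this machinery receives ingested material, bacteria, dying cells and particles, and trims antigens for presentation. Transcription of many lysosome genes is driven by the factors TFEB, TFE3 and MITF, which bind short DNA motifs with the core CACGTG.

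Each RNA molecule was counted once through its unique molecular identifier (UMI). Of 943 deposited cells, 801 were retained, and the 142 left out each had UMIs of 3 or more genes that mark another class, which was B or plasma cells for 125 of them. The cells left out made up 18% and 19.8% of the cells of DEP mice 14 and 15 and 8% and 11.8% of those of PBS mice 2 and 3. The authors' annotation against a reference left out fewer of the same 943 cells, and their search for doublets found no suspicious cells. Whether the cells left out here belonged to another class was not tested. Retained libraries held between 665854 and 966527 UMIs per mouse, and 1 cell barcode was found in more than 1 library. The cells were ordered by the share of their UMIs from the complement genes C1qa, C1qb and C1qc, which monocytes gain as they become resident macrophages. That gave 140 cells under 0.3%, 57 cells between 0.3 and 1% and 604 cells above 1%, with 5 cells within 0.1 percentage points of the lower edge and 39 of the upper edge. A cell held 3156, 2631 and 3890 UMIs in the median in that order, and libraries of a bin held as few as 28229 UMIs in the middle bin.

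The markers of the sorted cells changed along the bins. The 6 monocyte markers, Ly6c2 and Ccr2 among them, summed to between 5394 and 7931 CPM (UMIs scaled to the size of the library) under 0.3%, between 777 and 6014 in the middle bin and between 310 and 447 above 1%. The macrophage gene Adgre1, which encodes F4/80, ran from between 150 and 230 CPM under 0.3% to between 507 and 576 above 1%, and Ms4a7 from between 59.3 and 87.5 to between 1817 and 2224. The whole list of 10 macrophage markers, led by Lyz2, which monocytes share, summed to between 40986 and 54175 CPM under 0.3% and between 21217 and 23095 above 1%. Mertk, a receptor for dying cells, was sparse throughout, at 0 in 3 of 4 libraries both under 0.3% and in the middle bin. Above 1% it had between 14.1 and 25.4 CPM. Cd14 of the same list overlapped between the outer bins, with between 831 and 2508 CPM under 0.3% and between 841 and 1428 above 1%. The 10 B or plasma cell markers summed to between 263 and 453 CPM under 0.3% and between 357 and 475 above 1%, with Cd79a, Ms4a1, Mzb1, Ighd and Iglc2 at 0 under 0.3%. A UMI of these markers was present in 65%, 63.2% and 74.7% of the retained cells under 0.3%, in the middle bin and above 1%. T cell and epithelial markers summed to at most 35.8 CPM in any library, and the neutrophil markers Csf3r and Mmp9 to at most 187 CPM. NK or innate lymphoid markers reached 93.6 CPM and stromal or endothelial markers 49.1 CPM. Dendritic cell markers were uneven across mice, with 50.1, 146, 0 and 32.8 CPM under 0.3% in mice 14, 15, 2 and 3.

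The promoters of 4 of the genes are shown because they span the range of the motif that TFEB, TFE3 and MITF bind. RefSeq windows of 300 bases, from 250 before to 50 after the start of transcription on GRCm38.p6, were found for 32 of the 37 genes, and no entry was matched for Ctsb, Ctsh, Npc1, Asah1 and Atp6v1b2. Only the 6 letters CACGTG, which read the same on both strands, were searched. They were found in at least 1 window of 9 of the 32 genes (28.1%), namely Atp6v0d1, Atp6v1a, Ctsa, Ctsd, Ctsl, Glb1, Lamp1, Lgmn and Mcoln1. Among 72 other lysosome genes with an entry 22 held the motif (30.6%), against 8.09% of 27025 genes and 7.15% of all 32851 windows. Capitals mark the motif in the sequences that follow, which run 5′ to 3′ on the strand of the gene.
Cd63, a tetraspanin gene without the motif, chr10:128909095-128909394, plus strand: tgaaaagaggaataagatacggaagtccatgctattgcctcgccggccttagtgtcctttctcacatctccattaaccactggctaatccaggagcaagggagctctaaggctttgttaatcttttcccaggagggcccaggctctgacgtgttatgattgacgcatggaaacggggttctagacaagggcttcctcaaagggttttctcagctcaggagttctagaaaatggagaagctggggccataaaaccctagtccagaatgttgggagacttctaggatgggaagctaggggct
Ctsl, a cysteine protease gene with 1 match, chr13:64370471-64370770, minus strand: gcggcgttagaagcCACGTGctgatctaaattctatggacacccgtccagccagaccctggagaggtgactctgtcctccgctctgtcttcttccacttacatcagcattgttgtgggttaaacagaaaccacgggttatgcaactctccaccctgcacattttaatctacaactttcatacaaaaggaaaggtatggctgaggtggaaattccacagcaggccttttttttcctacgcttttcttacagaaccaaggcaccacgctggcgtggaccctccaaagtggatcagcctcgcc
Ctsd, the aspartic protease gene with 2 matches, chr7:142387778-142388077, minus strand: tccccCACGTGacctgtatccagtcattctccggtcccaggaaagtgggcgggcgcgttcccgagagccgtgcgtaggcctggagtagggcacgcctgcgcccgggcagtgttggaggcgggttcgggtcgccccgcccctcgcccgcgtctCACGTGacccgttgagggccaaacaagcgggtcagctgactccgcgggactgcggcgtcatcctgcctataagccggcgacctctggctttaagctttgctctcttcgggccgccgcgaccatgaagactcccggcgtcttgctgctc
Lamp1, a membrane glycoprotein gene with 4 matches, chr8:13158911-13159210, plus strand: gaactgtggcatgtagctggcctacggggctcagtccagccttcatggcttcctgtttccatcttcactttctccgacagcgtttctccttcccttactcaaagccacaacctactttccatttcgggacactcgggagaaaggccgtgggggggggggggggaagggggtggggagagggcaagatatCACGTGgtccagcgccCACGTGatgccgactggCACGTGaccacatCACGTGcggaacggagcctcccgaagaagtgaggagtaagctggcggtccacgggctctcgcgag

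The 4 matches of Lamp1 began at −61, −45, −28 and −15 from its start of transcription, those of Ctsd at −245 and −98, and that of Ctsl at −236. The windows of Cd63 and Ctsl lie inside the genes as GENCODE draws them, from 128900989 to 128912822 on chromosome 10 and from 64359337 to 64370890 on chromosome 13, because RefSeq places their starts there. Such a match describes letters in a window and is no evidence of binding.

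The lysosome genes took a larger share of all UMIs in cells with more C1q, in each of the 4 mice. Over all retained cells they supplied 3.0% and 2.61% of the UMIs of DEP mice 14 and 15 and 2.82% and 2.72% of those of PBS mice 2 and 3, so the treatment groups overlapped. In cells under 0.3% C1q the shares were 2.18%, 1.99%, 2.06% and 2.10% in mice 14, 15, 2 and 3, and in cells above 1% they were 3.18%, 2.80%, 2.91% and 2.83%. The difference between these bins was 0.848 ± 0.112 percentage points (SD, n = 4 mice), and the middle bin lay between them with 2.43%, 2.23%, 2.53% and 2.16%. A share of the smallest library, 2.53% of mouse 2 in the middle bin, had a 95% Wilson interval from 2.35% to 2.72%, which covers counting error only. Of the 91938 UMIs of the set, 57.3% came from Ctss, Psap, Ctsb, Ctsc and Lgmn. The make-up shifted along the bins, with Cd63 at 0.371%, 3.25% and 5.14% of the UMIs of the set and Psap at 23.3%, 18.4% and 14.8%.

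**Figure D1:**
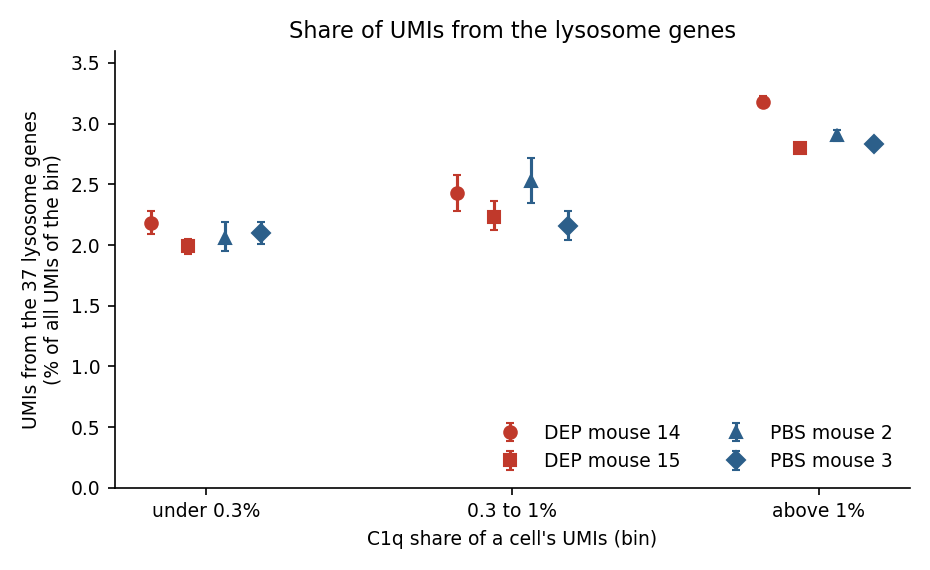
Share of all UMIs that came from the 37 lysosome genes (y axis, percent of the UMIs of a library) in each C1q bin (x axis), with 1 point per mouse and bars for the 95% Wilson interval. In every mouse the bin above 1%, between 2.80% and 3.18%, lies above the bin under 0.3%, between 1.99% and 2.18%.

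To see which genes made up this difference, UMIs were summed per mouse and bin into 12 libraries, scaled by the TMM method and compared with edgeR's quasi-likelihood test, with the mouse as a block and Benjamini-Hochberg adjustment over all 5339 genes tested. Of the lysosome genes 36 passed the filter on low counts, and 19 of them were higher above 1% than under 0.3% at an adjusted p under 0.05, while none was lower. Among all genes tested 11.4% were called higher and 7.3% lower. The median log2 fold change was 0.68 over the 36 lysosome genes and 0.14 over all genes, and 31 of the 36 lay above the latter. In 21 genes all 4 libraries above 1% exceeded all 4 under 0.3%, against 15.6% of all genes, and the reverse held for none, against 7.51%. Sums of this kind do not tell more cells with a transcript from more transcript per cell. With the mouse as a block, the p-values rest partly on how much the differences between bins varied across these 4 mice. The test also draws the variance of each gene toward that of all genes tested. A very small p-value is therefore no measure of the spread of that gene across 4 mice alone. The monocyte markers fell along the same bins, as given above, and their part in the lysosome values was not tested.

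**Figure D2:**
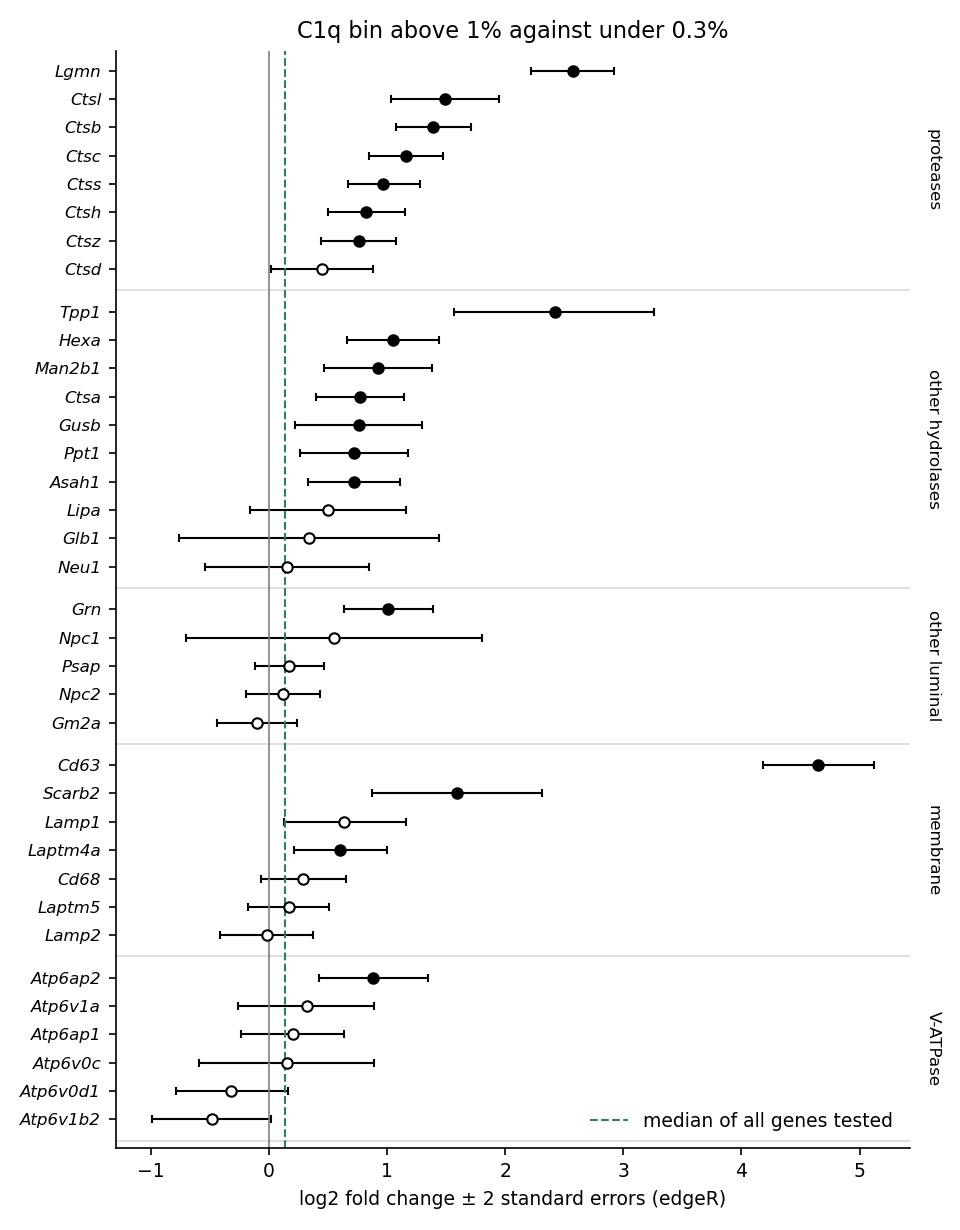
Log2 fold change of the 36 tested lysosome genes between cells above 1% and under 0.3% C1q (x axis), grouped by role (y axis), with bars of 2 standard errors, filled points for an adjusted p under 0.05 and a dashed line at the median of all genes tested, 0.14. Filled points fill most of the protease rows and the V-ATPase rows hold 1, Atp6ap2.

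Among the 8 proteases 7 were called higher, with a median log2 fold change of 1.07. Legumain, the asparaginyl endopeptidase encoded by Lgmn (chromosome 12, 102394084 to 102439813, minus strand), had 546, 512, 419 and 398 CPM under 0.3% in mice 14, 15, 2 and 3. The middle bin held 1089, 1443, 2095 and 1418 CPM, and cells above 1% held 2965, 2582, 3155 and 2706 CPM. The 3 ranges did not overlap, and the difference between the outer bins was 2.57 ± 0.17 (log2 ± SE, adjusted p = 8.13e-47), or 5.93-fold.

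Cathepsin L, an endopeptidase of the lumen encoded by Ctsl, had 139, 223, 64.5 and 86 CPM under 0.3% and 447, 323, 445 and 403 CPM above 1%. Its 2 DEP libraries were the higher ones under 0.3% but not above 1%, and the bins differed by 1.49 ± 0.23 on the log2 scale (adjusted p = 2.87e-09). Cathepsin B, the product of Ctsb and both an endo- and an exopeptidase, had 1092, 1424, 1482 and 1333 CPM under 0.3% against 3773, 3467, 3269 and 3393 CPM above 1%. The rise of Ctsb was 1.39 ± 0.16 (adjusted p = 5.47e-17), with the lowest library above 1% well clear of the highest under 0.3%.

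Cathepsin C, a dipeptidyl peptidase that activates granule serine proteases, went from 1519, 1391, 1208 and 1322 CPM for Ctsc under 0.3% to 3579, 3125, 2694 and 2721 CPM above 1%. That is a log2 difference of 1.16 ± 0.16 (adjusted p = 6.07e-12), and mouse 14 was the highest in both bins. Cathepsin S, which trims the invariant chain of MHC class II, gave 3425, 3010, 3029 and 2783 CPM for Ctss under 0.3%. Above 1% Ctss held 6875, 5787, 6170 and 5318 CPM, a rise of 0.97 ± 0.15 (adjusted p = 3.32e-09) without overlap.

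Cathepsin H and cathepsin Z, an amino- and a carboxypeptidase, were also called, with Ctsh at 0.82 ± 0.16 (adjusted p = 5.64e-06) and Ctsz at 0.76 ± 0.16 (adjusted p = 3.7e-05). The exception was Ctsd, which encodes the aspartic protease cathepsin D and whose promoter holds the motif 2 times. It had 298, 250, 129 and 204 CPM under 0.3% and 292, 308, 333 and 322 CPM above 1%. Those libraries overlapped through mouse 14, and the difference of 0.45 ± 0.21 did not pass the test (adjusted p = 0.137).

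**Figure D3:**
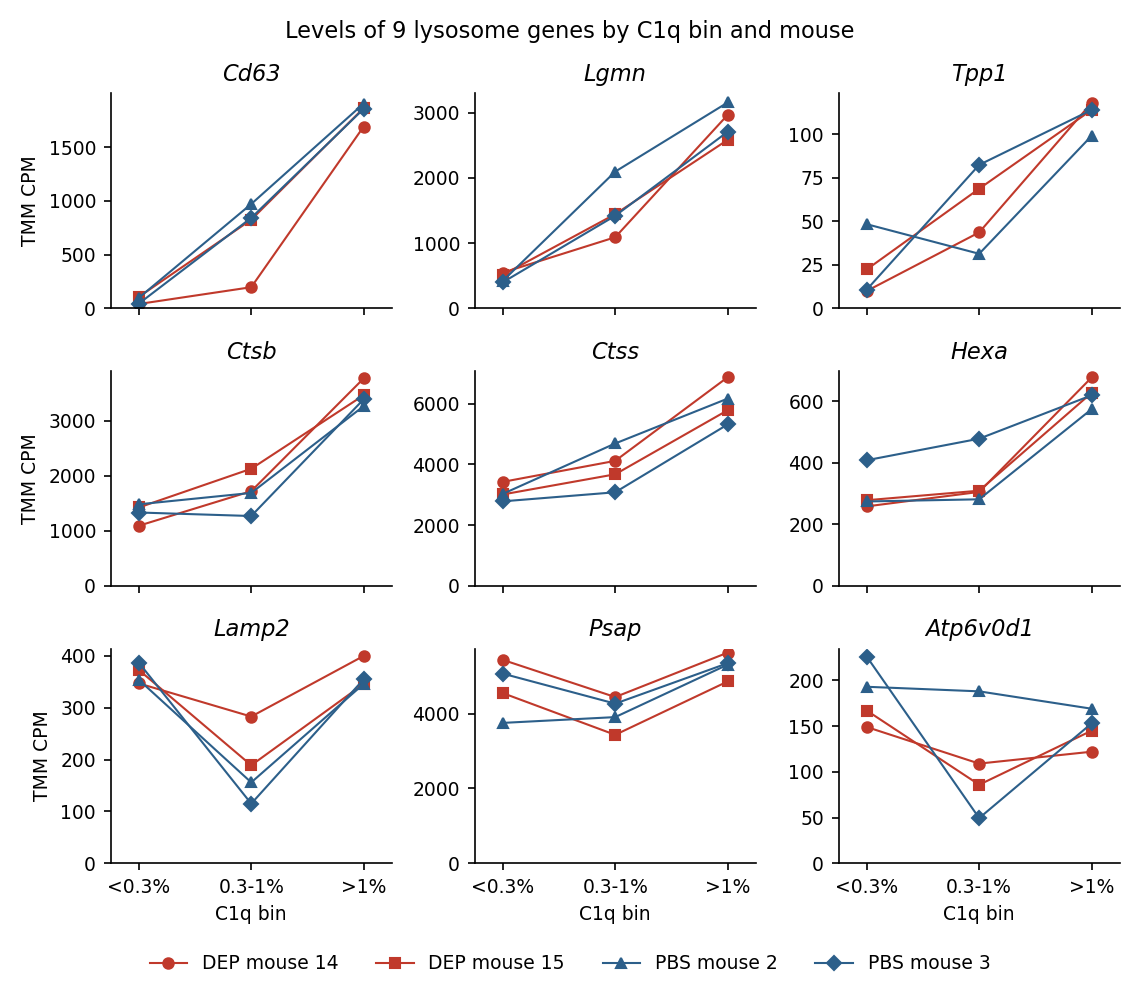
Level of 9 lysosome genes (y axis, TMM-scaled CPM, each panel with its own scale) in the 3 C1q bins (x axis), with 1 point and line per mouse. Cd63 climbs from between 39.7 and 106 CPM to between 1691 and 1905 in all 4 mice, while Psap and Atp6v0d1 overlap between the outer bins.

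The other hydrolases followed with 7 of 10 called higher and a median log2 fold change of 0.74. Tripeptidyl peptidase 1, encoded by Tpp1 (chromosome 7, 105744811 to 105752235, minus strand) and lost in a childhood neuronal ceroid lipofuscinosis, had 9.93, 22.3, 48.3 and 10.7 CPM under 0.3%, from 1, 4, 3 and 1 UMIs. It had 118, 114, 99.1 and 114 CPM above 1%, above every library of the lower bin. The difference was 2.42 ± 0.42 (adjusted p = 2.31e-07), and it was 1.77 with an adjusted p of 0.0754 once every cell was thinned to 1000 UMIs.

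Hexa encodes the alpha subunit of beta-hexosaminidase A, the enzyme of ganglioside GM2. Its libraries held 258, 278, 274 and 408 CPM under 0.3% and 677, 627, 574 and 619 CPM above 1%. The groups did not overlap, although mouse 3 stood above the others in the lower bin, and the difference was 1.05 ± 0.19 (adjusted p = 1.21e-06). Smaller rises were called for the alpha-mannosidase gene Man2b1 (0.92 ± 0.23), the carboxypeptidase gene Ctsa (0.77 ± 0.19), the beta-glucuronidase gene Gusb (0.76 ± 0.27), the acid ceramidase gene Asah1 (0.72 ± 0.20) and the palmitoyl-protein thioesterase gene Ppt1 (0.72 ± 0.23). The 3 that were not called were the acid lipase gene Lipa at 0.50 ± 0.33, the beta-galactosidase gene Glb1 at 0.34 ± 0.55 and the sialidase gene Neu1 at 0.15 ± 0.35.

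Among the 5 genes of lipid handling and the lumen 1 was called, and their median was 0.17. Grn encodes progranulin, which is cleaved into granulins in the lysosome, and had 377, 284, 403 and 419 CPM under 0.3% and 742, 709, 679 and 790 CPM above 1%. The difference was 1.01 ± 0.19 (adjusted p = 1.26e-06) with no overlap. Psap, whose product is cut into the 4 saposins that activate sphingolipid hydrolases, had 5440, 4551, 3754 and 5072 CPM under 0.3% against 5633, 4862, 5311 and 5350 CPM above 1%. These ranges overlapped, at 0.17 ± 0.15 (adjusted p = 0.494). The cholesterol carrier gene Npc2 stood at 0.12 ± 0.16, its partner Npc1 at 0.55 ± 0.62 with at most 48.3 CPM in any library, and the GM2 activator gene Gm2a at −0.10 ± 0.17.

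The membrane proteins held both the largest change of the set and genes with none that passed the test. Of 7 tested, 3 were called higher, Cd63, Scarb2 and Laptm4a, with a median of 0.60 over the 7. Cd63, which encodes a tetraspanin of late endosomes and lysosomes, had 39.7, 106, 96.7 and 43 CPM under 0.3%, from 4, 19, 6 and 4 UMIs. In the middle bin it reached 196, 824, 970 and 841 CPM and above 1% it reached 1691, 1863, 1905 and 1856 CPM. None of the 3 ranges overlapped, and the outer bins differed by 4.65 ± 0.23 (adjusted p = 1.77e-84), or 25.1-fold. With the cells left out as other classes put back, this difference of Cd63 was 2.88.

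Scarb2 encodes LIMP-2, the receptor that carries glucocerebrosidase to the lysosome. Its libraries held 59.6, 33.4, 0 and 43 CPM under 0.3%, from 6, 6, 0 and 4 UMIs, and 145, 84.7, 146 and 104 CPM above 1%. The bins did not overlap at 1.59 ± 0.36 (adjusted p = 0.000144), but in cells thinned to 1000 UMIs the difference was 0.61 (adjusted p = 0.528). Laptm4a, a 4-pass membrane protein gene, was called at 0.60 ± 0.20 (adjusted p = 0.0152).

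Lamp1, one of the most abundant glycoproteins of the lysosomal membrane and the gene with 4 motifs, had 119, 139, 64.5 and 118 CPM under 0.3% against 198, 145, 173 and 230 CPM above 1%. The libraries did not overlap, with mouse 15 at both edges of the gap, and 0.64 ± 0.26 did not pass the test (adjusted p = 0.0622). Cd68, the scavenger-type glycoprotein long used as a macrophage stain, had 556, 551, 451 and 441 CPM under 0.3% and 583, 617, 572 and 664 CPM above 1%. These libraries did not overlap either, and 0.29 ± 0.18 was not called (adjusted p = 0.31). Lamp2 and Laptm5 stood at −0.02 ± 0.20 and 0.17 ± 0.17. Mcoln1, the calcium channel of the lysosome, failed the filter with 21 UMIs, all of them in cells above 1%, and a count of 0 among 430641 UMIs under 0.3% allows up to 6.97 CPM there, close to the 7.78 CPM above 1% (both without TMM factors).

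Among the V-ATPase genes 1 of 6 was called, and their median was 0.17. The called gene was Atp6ap2, the accessory protein also known as the prorenin receptor, at 0.88 ± 0.23 (adjusted p = 0.00134). Atp6v0c, the proteolipid of the ring that carries the protons, had 69.5, 66.8, 64.5 and 21.5 CPM under 0.3% and 57.1, 53.6, 90.7 and 64.6 CPM above 1%. The ranges overlapped, with mouse 3 of the lower bin below all others, and the log2 difference was 0.15 ± 0.37 (adjusted p = 0.844). Atp6v1a and Atp6ap1 stood at 0.32 ± 0.29 and 0.20 ± 0.22, and Atp6v0d1 and Atp6v1b2 at −0.32 ± 0.24 and −0.48 ± 0.25.

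The scale chosen for the libraries moved the split of calls. Scaled to the library totals alone, a setting added after seeing the data, the median of all genes was −0.18 and that of the lysosome genes 0.36, with 13 called higher and 3 lower, namely Atp6v1b2 (−0.81), Atp6v0d1 (−0.65) and Gm2a (−0.43). Without mouse 14, Atp6v1b2 was called lower (−0.88) and 17 genes higher. The genes called higher in all 14 alternatives run were 9, Cd63, Ctsb, Ctsc, Ctsh, Ctsl, Ctss, Grn, Hexa and Lgmn. By promoter, 3 of the 8 tested genes with the motif and 13 of the 23 without it were called higher, a description of few genes.

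Between 0.3 to 1%, the smallest bin, and under 0.3%, Cd63 and Lgmn were the 2 lysosome genes called higher, and Lamp2 was the 1 called lower, against 2.87% and 3.76% of all genes. The count called higher depended on the processing and was 6 with RLE size factors and 12 with bin edges of 0.5% and 1.5%, Ctsb, Ctsc, Ctss and Lamp1 being among both. Cd63 rose by 3.22 ± 0.28 (adjusted p = 1.45e-27) and Lgmn by 1.63 ± 0.19 (adjusted p = 4.52e-15), and both were called under each of the 14 alternatives. The median over the 36 genes was −0.03, where that over all genes was −0.17. Lamp2, a membrane glycoprotein with a part in autophagy, had 347, 373, 354 and 387 CPM under 0.3%, 283, 189, 156 and 115 CPM in the middle bin and 400, 346, 346 and 355 CPM above 1%. The middle libraries were thus the lowest in all 4 mice, and Lamp2 fell by 1.0 ± 0.29 from the first bin (adjusted p = 0.0145) and rose again by 0.98 ± 0.27 (adjusted p = 0.0114). Each of these calls was lost in 7 of the 14 alternatives. For the fall these included DESeq2, bin edges of 0.5% and 1.5% (−0.37) and the fits without mouse 15, 2 or 3 (adjusted p = 0.0937, 0.0528 and 0.298), and for the rise the same settings. The median mitochondrial share of UMIs per cell was 2.71% in the middle bin against 1.53% and 1.8% in the others, and its part in these values was not tested.

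From the middle bin to above 1%, 17 of the 36 genes were called higher and none lower, against 3.28% and 0.787% of all genes. The median was 0.71, that of all genes 0.29, and in 25 genes the libraries above 1% exceeded all others, against 11.5% of all genes, and the reverse held for none, against 1.22%. Proteases made up 7 of the 17, with Ctsb at 1.04 ± 0.16 (adjusted p = 3.38e-08) and Ctsl at 1.08 ± 0.27 (adjusted p = 0.00246), the latter call being lost in 6 of 14 alternatives. Asah1, which had 131, 326, 188 and 181 CPM in the middle bin against 589, 506, 580 and 484 CPM above 1%, rose by 1.36 ± 0.25 (adjusted p = 8.02e-06). Cd68, not called between the outer bins, had its lowest levels in the middle, 523, 395, 281 and 330 CPM, and was called here at 0.68 ± 0.22 (adjusted p = 0.0473), a call lost in 11 of 14 alternatives, among them each fit without a mouse. The count of 17 became 6 with either library totals or edges of 0.5% and 1.5%, 8 in thinned cells, 9 with DESeq2, 10 with RLE size factors, and 10, 11, 9 and 11 without mouse 14, 15, 2 and 3, and 3 genes, Cd63, Ctsb and Lgmn, were called in every alternative.

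Other lysosome genes were read from the same fit for comparison. Of 91 further genes listed by textbook role 69 were tested between the outer bins. Of these, 11 were called higher and 1 lower, against 11.4% and 7.3% of all genes. The other hydrolases held 10 of the 11, among 28 tested with a median of 1.08. Ctsf, a cysteine protease gene, had no UMI among 430641 under 0.3% and 82 among 2700130 above 1%, which is at least 4.36-fold higher against a floor of 3 UMIs over the group. Acp5, the tartrate-resistant phosphatase gene, had 89.3, 27.8, 16.1 and 21.5 CPM under 0.3% and 526, 455, 624 and 547 CPM above 1% (3.71 ± 0.29, adjusted p = 1.31e-34). Pld3, a lysosomal exonuclease gene, had 19.9, 33.4, 16.1 and 0 CPM against 112, 114, 118 and 137 CPM (2.57 ± 0.42, adjusted p = 1.76e-08). All 3 genes were without overlap between the bins.

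Among 17 other membrane proteins and transporters Tpcn2, a cation channel gene, was the 1 called, at 2.83 ± 1.03 (adjusted p = 0.0345) and on a single UMI under 0.3%. None of 10 further V-ATPase subunits and none of 7 cystatins and sorting receptors was called by edgeR's test, with 2 and 1 of them at an unadjusted p under 0.05. Of all 5339 genes tested between these bins, 1505 were at an unadjusted p under 0.05. In the list of the TFEB family and regulators of mTORC1 none of 7 was called higher, although 5 had a positive log2 fold change and their median was 0.62, with 3 of the 7 at an unadjusted p under 0.05 in either direction. Rraga was called lower. Rraga encodes a Rag GTPase that brings mTORC1 to the lysosome, and it had 199, 245, 193 and 269 CPM under 0.3% against 99.9, 133, 110 and 87.2 CPM above 1% (−1.08 ± 0.23, adjusted p = 5.27e-05). The factors themselves were sparse, with Tfeb at 0.59 ± 0.55 (adjusted p = 0.539), Tfe3 at −0.60 ± 0.52 (adjusted p = 0.498) and Mitf at 0.81 ± 0.64 (adjusted p = 0.45). Each had at most 5 UMIs in any library under 0.3%. Whether differences of this size could be detected at this depth was not tested.

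DEP exposure was then compared with PBS over all retained cells, with 4 libraries and treatment as the only term. None of the 36 lysosome genes tested passed the threshold, where 0.0187% of all genes did, and neither did any under DESeq2. Their log2 fold changes ran from −0.63 for Neu1 to 0.26 for Ppt1, with standard errors between 0.12 and 0.36, and their median was −0.05 where that of all genes was −0.01. By edgeR 1 lysosome gene, Neu1, had an unadjusted p under 0.05, against 327 of all 5339 genes tested. By DESeq2 no lysosome gene did. The libraries of the groups did not overlap in 4 genes that were higher with DEP and 7 that were lower, against 18.4% and 18.7% of all genes. With a median standard error of 0.15, an interval of 2 standard errors reached about 0.3 either side of a typical gene.

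Neu1 (chromosome 17, 34931253 to 34935953, plus strand), the sialidase that removes terminal sialic acid, had 43.1 and 57.1 CPM in DEP mice 14 and 15 and 72.6 and 83.7 CPM in PBS mice 2 and 3. Both DEP libraries lay under both PBS libraries, with a difference of −0.63 ± 0.23 and an interval of 2 standard errors from −1.10 to −0.17. Its unadjusted p was 0.021 and its adjusted p 0.764. The opposite end was Ppt1, with 263 and 228 CPM against 204 and 206 CPM (0.26 ± 0.16, adjusted p = 0.845).

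Of the V-ATPase genes, Atp6v0c had 51.4 and 48.5 CPM with DEP and 77.3 and 52.6 CPM with PBS (−0.35 ± 0.26, adjusted p = 0.859). The gap came mostly from mouse 2, without which the difference was −0.07, and it was 0.14 in cells thinned to 1000 UMIs. Atp6v0d1, a subunit of the stalk of the pump, had 111 and 128 CPM against 155 and 135 CPM (−0.26 ± 0.18, adjusted p = 0.857), also without overlap.

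Cd63 had 1170 and 1234 CPM with DEP and 1483 and 1385 CPM with PBS (−0.25 ± 0.12, adjusted p = 0.804). The libraries did not overlap, but they differed in their cells: 19.4% and 24.3% of the retained cells of the DEP mice lay under 0.3% C1q against 10.3% and 13.4% of those of the PBS mice. That is 21.8% ± 3.46 against 11.9% ± 2.18 (SD, n = 2 each), and the exact two-sided permutation p of 0.333 is the smallest that 2 mice against 2 can give (0.5 adjusted over the 3 bins). With equal shares of the bins drawn in every mouse the Cd63 difference was −0.07, and within cells above 1% it was −0.06 ± 0.13. Under 0.3% it was 0.22 ± 0.59, and in the middle bin, with 196 and 824 CPM against 970 and 841 CPM, it was −0.71 ± 0.37 (adjusted p = 0.847) without overlap. The part of the mix of cells in the Cd63 difference was not tested.

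The representative genes Ctsd, Lamp1, Cd68 and Psap were not called either. Ctsd had 251 and 249 CPM with DEP and 270 and 266 CPM with PBS (−0.10 ± 0.15), without overlap. Lamp1 had 158 and 133 CPM against 151 and 191 CPM (−0.25 ± 0.19), with overlap. Cd68 stood at 508 and 516 CPM against 486 and 540 CPM and Psap at 4882 and 4128 CPM against 4538 and 4606 CPM, with DEP libraries on both sides of the PBS libraries for Psap and between them for Cd68.

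**Figure D4:**
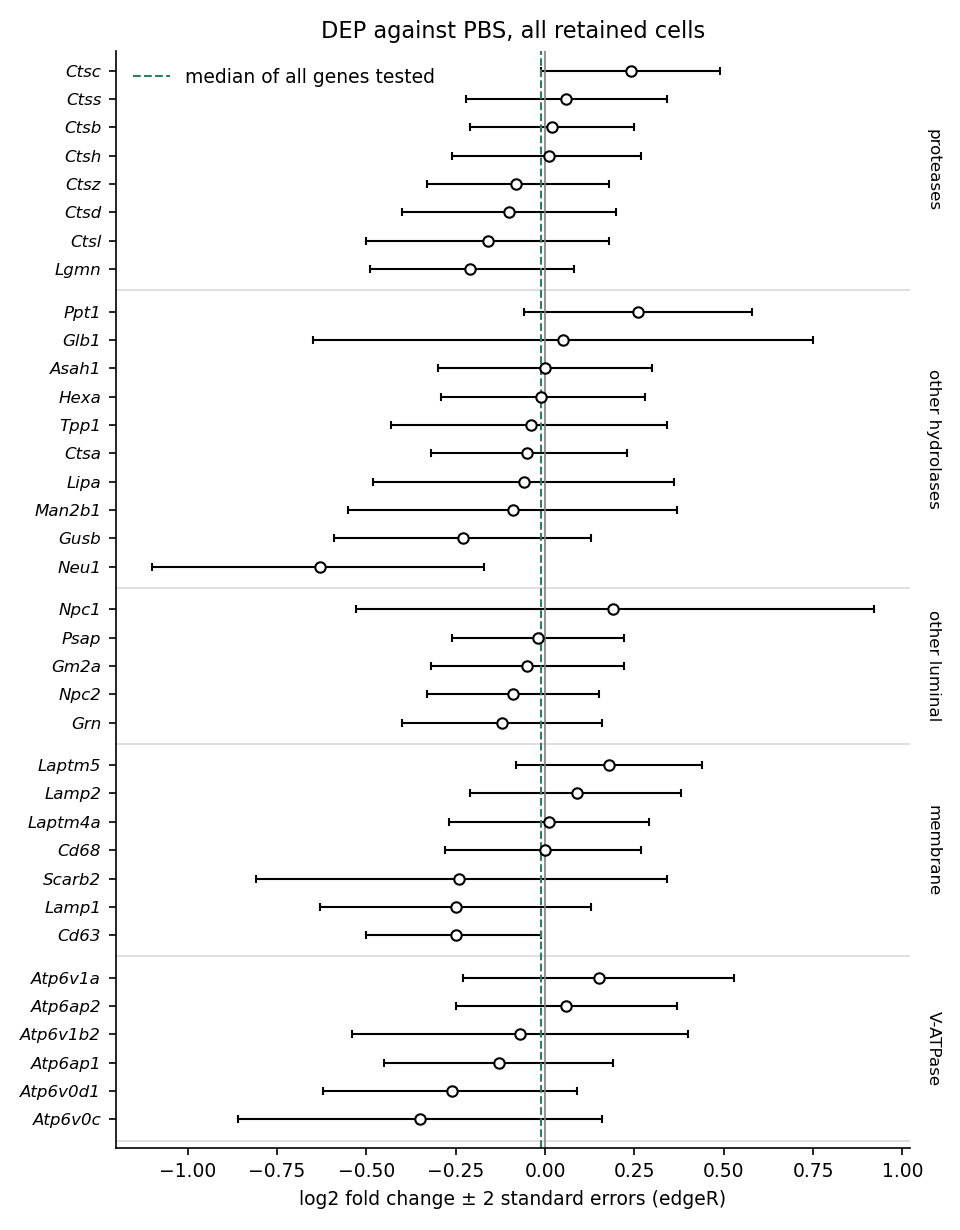
Log2 fold change of the 36 tested lysosome genes between DEP and PBS over all retained cells (x axis), grouped by role (y axis), with bars of 2 standard errors, open points for an adjusted p of 0.05 or more and a dashed line at the median of all genes tested, −0.01. Every point is open, and Neu1 lies farthest from 0 at −0.63.

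Within each C1q bin the comparison of DEP with PBS also called no lysosome gene. Under 0.3% it tested 35 of them and called none, against 0.642% of all genes. It found 3 at an unadjusted p under 0.05, Ctsl, Gm2a and Atp6ap1, against 307 of all 4828 genes tested. In the middle bin 36 were tested and none called, against 0.309%. There 1, Ctsc, was at an unadjusted p under 0.05, against 283 of all 5174 genes tested. Above 1% neither a lysosome gene nor any other was called (0% of all genes). Ctsc, Ppt1 and Neu1 were at an unadjusted p under 0.05 there, against 294 of all 5526 genes tested. No alternative run, DESeq2 included, called a lysosome gene in any of these comparisons.

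The Ctsl libraries under 0.3%, at 139 and 223 CPM with DEP and 64.5 and 86 CPM with PBS, gave a difference of 1.21 ± 0.48 (unadjusted p = 0.0128, adjusted p = 0.455). Above 1% the same gene had 447 and 323 CPM against 445 and 403 CPM (−0.12 ± 0.18). The difference between those differences, tested as an interaction of bin and treatment, was −1.45 ± 0.50 (unadjusted p = 0.00347, adjusted p = 0.359). Gm2a was the other lysosome gene with an unadjusted p under 0.05 there, at −0.74 ± 0.30 (adjusted p = 0.657). Of all 5339 genes 260 had one. None of the 36 lysosome genes passed, against 0.15% of all genes.

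Ctsc had 3579 and 3125 CPM with DEP against 2694 and 2721 CPM with PBS above 1% (0.32 ± 0.12, adjusted p = 0.91). In the middle bin it had 2113 and 2267 CPM against 1095 and 1483 CPM (0.80 ± 0.33, adjusted p = 0.674). The DEP libraries were the higher ones in both bins, and neither difference passed the test. Neu1 above 1% had 48.9 and 62.2 CPM against 92.8 and 88.7 CPM (−0.67 ± 0.25, adjusted p = 0.91), without overlap. Under 0.3% Neu1 had 59.6 and 72.3 CPM against 16.1 and 86 CPM, with overlap, and its interaction of −0.91 ± 0.72 did not pass (adjusted p = 1).

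Of the other lysosome genes 69 were tested between DEP and PBS over all cells and none was called by edgeR or DESeq2. By edgeR 5 were at an unadjusted p under 0.05, against 327 of all 5339 genes tested. All 5 were among the 28 hydrolases of the 69. Ctsf had 16.7 and 18.3 CPM with DEP against 34.7 and 38.6 CPM with PBS (−1.06 ± 0.31, unadjusted p = 0.00632, adjusted p = 0.751), without overlap. Within cells above 1% it had 22.4 and 29.4 CPM against 46.4 and 48.1 CPM (−0.83 ± 0.33, adjusted p = 0.91), also without overlap. The medians were −0.18 over the 28 hydrolases and −0.07 over the 69 genes.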

How the data were processed

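The authors aligned the reads to mm10 with Cell Ranger (the submitters' notes name STAR 2.6.1a and R 3.6), removed shallow cells and those rich in mitochondrial UMIs, and deposited the unnormalized UMI counts of every gene and cell, with the mouse in the column name. The deposited cells had at least 1016 UMIs and 429 genes and at most 6.99% mitochondrial UMIs. Counts were summed per mouse, or per mouse and C1q bin, in Python 3.11.15 and tested in R 4.3.3 with edgeR 4.0.16 (TMM, quasi-likelihood test, Benjamini-Hochberg adjustment). A gene was tested when it passed 1 CPM in 2 or more libraries and was detected in 5% or more of the cells, and a call needed an adjusted p under 0.05. CPM over all cells and CPM per bin were scaled in separate sets of libraries and are not set against each other. CPM of the marker genes were computed without TMM factors.

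Cells with UMIs of 3 or more markers of 1 class among B or plasma, T, NK or innate lymphoid, epithelial and stromal or endothelial cells were left out, and no doublet caller was run. Bin comparisons had the mouse as a block, since each mouse gave all 3 bins. Shares of cells were compared with scipy 1.17.1. DESeq2 1.42.0, other scalings, filters, cell sets and bin edges, thinned cells and each mouse left out in turn were alternatives. The fits were tested on simulated counts with the same dispersion for every gene and no effect of the mouse. That setting is simpler than these data, so the simulation does not show how well the fits hold here. Counts carry no length bias to correct in this 3′ assay, and levels are compared within genes only.

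The lysosome genes, the other lists and the tests were chosen with earlier results of these data known. Values per mouse are given for genes called between DEP and PBS (none), the 5 largest differences there and the 10 largest called differences between the outer bins. They are also given for Ctsd, Lamp1, Cd68, Psap and Atp6v0c as representatives of the roles. Lamp1 and Cd68 are both membrane proteins, and the other hydrolases have no representative. In each other list they are given for the 3 largest called differences, and the factors Tfeb, Tfe3 and Mitf are named. Values of Lamp2, Ctsc, Asah1, Cd68 in the middle bin and of the genes under an unadjusted p of 0.05 were picked after they were seen.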

Additional observations from a re-analysis of the deposited data

How the results depend on the processing

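Between cells above 1% and under 0.3% C1q, the 19 lysosome genes called, all higher, became 11 in cells thinned to 1000 UMIs. In the other alternatives between 16 and 19 were called in either direction. Lower calls were among them with library totals, 13 higher and 3 lower, and without mouse 14. Between 0.3 to 1% and under 0.3%, RLE size factors called 6 and bin edges of 0.5% and 1.5% called 12 in place of 3. Between above 1% and 0.3 to 1%, the 17 called became 9 with DESeq2, 10 with RLE size factors, 8 in thinned cells, 6 with edges of 0.5% and 1.5% and 6 with library totals, and between 9 and 11 with 1 mouse left out. The difference in the share of UMIs was 1.14 points with all deposited cells. Atp6v0c between DEP and PBS turned to 0.14 in thinned cells. The cause of these changes was not tested. Without the replicate block of the mouse, the bin comparisons called 18, 3 and 15 lysosome genes. No paired analysis was possible between DEP and PBS because the groups share no replicate number. With 1 mouse left out, 1 group keeps a single library, assumed to vary like the other group. Over all genes, the count called moved from 1001 to 391 in thinned cells between the outer bins. It ran between 128 and 782 (354 as reported) and between 64 and 235 (217) in the other bin comparisons. Between DEP and PBS it was between 0 and 51 over all cells (1), between 0 and 33 under 0.3% (31), between 0 and 21 in the middle bin (16), between 0 and 16 above 1% (0) and between 0 and 18 for the interaction (8). None of these alternatives called a lysosome gene between DEP and PBS. Libraries of the middle bin, with 28229 to 59213 UMIs, limit what could be called there.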
